A study of Mus musculus with 4 samples.

Results

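The regions described here are peaks of dimethylated lysine 4 on histone H3 (H3K4me2) of middle width that carried no peak of a FLAG-tagged factor, in mouse neural progenitor-like cells. They were chosen as the peaks of the H3K4me2 list on chromosomes 1 to 19 that were over 1000 bp and at most 3000 bp wide and shared not even 1 bp with a peak of any of the 3 FLAG lists. Of 48520 H3K4me2 peaks on these chromosomes, 31978 had such a width. Of these, 17607 had no FLAG peak and are called members below, and the other 14371 overlapped a FLAG peak and form the set they are compared with. Members made up 55.1% (95% exact binomial interval 54.5 to 55.6) of the peaks of this width, beside 54.7% without a FLAG peak among H3K4me2 peaks of every width. The width and the absence of a FLAG call are the rule itself, so these shares are a description and not a finding.

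The 4 libraries were chromatin immunoprecipitations followed by sequencing (ChIP-seq), 1 library per group, with no control library among them. All came from embryonic stem cell-derived neural progenitor-like cells of strain 129/SvJ at passages 15 to 18, expanded in EGF and FGF-2 at 10 ng/ml each. The H3K4me2 library, whose title names N31, Oct4, EGFP and 0 hr, was made with an antibody to the dimethylated histone. The FLAG libraries were made with the M2 antibody to the FLAG tag. Their titles name N31, EGFP and OK for the first (called EGFP_OK here; the labels used here do not name its tagged protein), and NS with Pax6 or Etv6 for the other two. The mark and the Pax6 and Etv6 factors were therefore measured in cells with different names in the titles, and the labels used here do not say how N31 and NS cells are related. The promoters of the tagged proteins and the number of clones or cultures are not stated in the labels used here. Because each group was 1 library, no difference below has a replicate error or a test. The intervals cover counting error over peaks only, and neighbouring peaks are not independent.

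H3K4me2 is laid down by methyltransferases of the MLL/SET1 family and removed by demethylases such as LSD1. It marks nucleosomes beside the start sites of active and poised genes and at enhancers, and enhancers that carry it are bound by many lineage factors. Pax6 is a paired-box and homeobox factor needed for the developing forebrain and eye, and Etv6 is a factor of the ETS family that mostly represses its targets. A marked region without a peak of these factors is one at which the mark was called and none of the tagged proteins was. It is not shown to be unbound, because each FLAG list has a calling limit. The fewest tags in any called peak were 19 in the EGFP_OK list, 10 in Pax6 and 18 in Etv6. After removal of duplicates the FLAG libraries held 21498324, 5288154 and 24071748 tags in that order, and the H3K4me2 library held 24550365. The gene table at hand is of another genome build (GRCm38) than the mm9 named in the submitters' processing notes. Members are therefore given by position in mm9, without genes or sequence, and the cell type was not checked against marker loci.

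Members covered 29.6 Mb and held 2397075 tags, which is 9.76% of all tags that library kept and 28.7% of the tags in its peaks on chromosomes 1 to 19. The comparison set was smaller in number but nearly equal in tags, with 2391348 tags over 27.6 Mb. Etv6 was the most frequent FLAG peak in it. Of the 14371 peaks, 78.6% (77.9 to 79.3) had an Etv6 peak, 37.1% (36.3 to 37.8) an EGFP_OK peak and 34.4% (33.6 to 35.2) a Pax6 peak. Overlap with Etv6 alone accounted for 5480 peaks, with Pax6 and Etv6 for 2925, with EGFP_OK alone for 2256 and with all 3 lists for 1205.

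Within the chosen widths, the narrower a peak was, the more often it was a member. Of peaks of 1001 to 1500 bp, 67.2% (66.3 to 68.0) had no FLAG peak. The share was 54.6% (53.6 to 55.6) at 1501 to 2000 bp, 45.4% (44.1 to 46.6) at 2001 to 2500 bp and 37.1% (35.6 to 38.6) at 2501 to 3000 bp. Nothing set the chosen limits apart from their surroundings. In steps of 100 bp, the share was 73.7% (71.8 to 75.5) just under the lower limit and 71.0% (69.0 to 72.9) just over it, and 32.9% (29.5 to 36.6) just under the upper limit and 28.6% (25.1 to 32.3) just over it. The median member was 1572 bp wide (1563 to 1583), against 1873 bp (1859 to 1886) in the comparison set. A wider peak also offers more bases for an overlap, and the part of this in the trend was not tested.

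**Figure D1:**
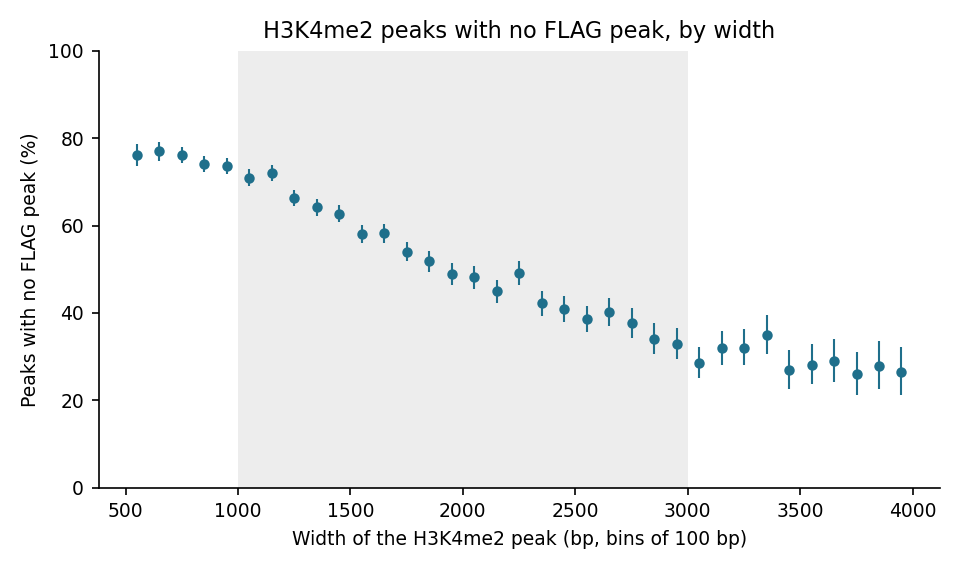
Share of H3K4me2 peaks on chromosomes 1 to 19 with no FLAG peak (y axis, percent) in bins of 100 bp of peak width (x axis, bp). Points are shares, bars are 95% exact binomial intervals, and the grey band marks the widths of the members. The share falls across the band from 71.0% in the first bin to 32.9% in the last.

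By its median in tags per kb, the H3K4me2 signal of the members looked weaker than that of the comparison set when all widths were pooled. At equal widths the difference of medians turned round. Tags per kb of peak are a level per length, and it still rose with width. Their median was 69.99 (69.4 to 70.6) in members and 75.7 (74.8 to 76.4) in peaks with a FLAG peak, a difference of -5.67. In peaks of 1501 to 2000 bp, members had the higher median, at 75.6 (74.6 to 76.7) against 72.1 (70.97 to 73.3). In those of 2001 to 2500 bp it was 89.3 (87.6 to 90.9) against 84.99 (83.8 to 86.3). At 1001 to 1500 bp the medians were 57.4 (56.97 to 57.8) and 56.6 (56.1 to 57.4), and at 2501 to 3000 bp 98.3 (96.7 to 100.5) and 96.3 (94.8 to 98.0). In these outer bins the intervals overlapped. Averaged over the 4 bins with equal weight, members were higher by 2.66 tags per kb. The counting errors of the 2 sets, added in each bin, averaged ±2.41, which is wider than the error of that average. The 90th percentile, in contrast, was higher with a FLAG peak in every bin. It was 108.5 against 97.9 in members at 1001 to 1500 bp, and 139.3 against 133.8 at 2501 to 3000 bp.

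The score of the peak caller, which is 10 times the −log10 of its p-value, was also lower in members when widths were pooled, and differed less clearly at equal widths. Pooled over widths, its median was 192.6 (190.05 to 195.3) in members and 213.1 (209.98 to 216.6) in the comparison set. At 1001 to 1500 bp it was 149.7 (147.3 to 152.4) in members and 143.5 (140.2 to 146.4) with a FLAG peak. At 1501 to 2000 bp it was 225.1 (219.1 to 230.2) and 210.6 (205.6 to 216.6). At 2001 to 2500 bp it was 276.4 (265.5 to 286.1) and 265.3 (258.3 to 272.6), with overlapping intervals. Averaged over the bins, members were higher by 6.25, which is within the counting error of ±15.9. In the widest bin they were lower, at 311.2 (291.4 to 325.5) against 317.99 (307.02 to 331.7), with overlapping intervals.

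The authors' fold enrichment sets the height of the summit over the background around it. Its median was higher in members over all widths and in every width bin but the widest. Its median was 6.11 (6.07 to 6.15) against 5.78 (5.75 to 5.82) over all widths. It was 6.35 (6.33 to 6.4) against 6.03 (5.92 to 6.11) at 1001 to 1500 bp, and 6.08 (6.0 to 6.16) against 5.80 (5.74 to 5.87) at 1501 to 2000 bp. The difference shrank with width, to 5.79 (5.70 to 5.88) against 5.60 (5.53 to 5.70) and then 5.54 (5.41 to 5.67) against 5.59 (5.50 to 5.67) in the widest bin. The 2 sets overlapped almost wholly whatever the measure. The middle 80% of folds ran from 3.95 to 9.69 in members and from 3.95 to 8.82 in the comparison set, so the median difference of 0.33 is small beside the spread among peaks.

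**Figure D2:**
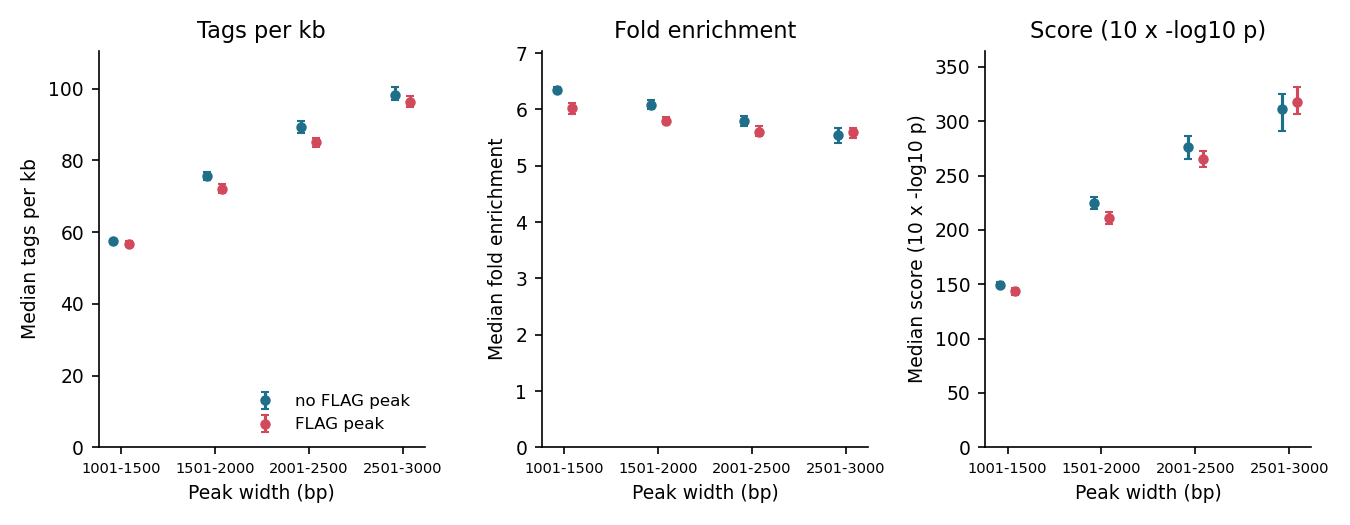
Median tags per kb, fold enrichment and score (y axes) of H3K4me2 peaks in 4 width bins (x axes, bp), for members (blue) and peaks with a FLAG peak (red). Points are medians over peaks of 1 library and bars are 95% exact order-statistic intervals. Tags per kb rise from 57.4 to 98.3 in members over the bins, and members lie above the comparison set in every panel except the widest bin for fold and score.

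Ranked among peaks of about the same width, members were most frequent in the upper middle of the tag density and least frequent at its top. Within the width bins, 60.8% (59.1 to 62.5) of the peaks in the seventh of 10 equal parts by tags per kb were members, against 53.0% (51.3 to 54.7) in the lowest part. In the highest part, with a median of 135.3 tags per kb, only 46.8% (45.1 to 48.6) were. By fold enrichment the order at the top was the other way. Members made up 62.4% (60.7 to 64.1) of the highest part by fold, 50.2% (48.5 to 51.97) of the fifth and 57.6% (55.9 to 59.3) of the lowest. So peaks that rose highest over their surroundings had fewer FLAG calls, whereas peaks with most tags per kb had more.

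The comparison set was itself uneven, and members lay between its classes. With the 4 width bins weighted equally, members had a mean of bin medians of 80.2 tags per kb. Peaks with both EGFP_OK and Etv6 had 89.4, those with Etv6 alone 81.6, those with EGFP_OK alone 78.1, those of all 3 lists 77.7 and those with Pax6 alone 77.2. The lowest class was that with Pax6 and Etv6 but no EGFP_OK, at 67.7. In fold enrichment, on the same footing, members stood at 5.94, next to Etv6 alone at 5.91. Only the class with EGFP_OK and Etv6 was higher, at 6.07, and the class with Pax6 and Etv6 was lowest at 5.42. The pooled comparison set thus averages over classes on both sides of the members.

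Pooled over widths, the summits of members lay inside the peaks much as those of the comparison set did. The median distance of the summit from the middle of the peak was 12.98% (12.8 to 13.2) of the width in members and 13.5% (13.3 to 13.7) with a FLAG peak. The direction changed with width. Members had the smaller distance at 1501 to 2000 bp, 11.8% (11.4 to 12.2) against 12.9% (12.4 to 13.3), and the larger at 2501 to 3000 bp, 15.8% (15.2 to 16.7) against 14.7% (14.1 to 15.1). Where another H3K4me2 peak lay close by, the summit leaned towards it. Of the 4085 members with a neighbour within 1 kb, 74.5% (73.1 to 75.8) had the summit in the side facing it. In the comparison set this held for 73.7% (72.1 to 75.2) of 3113. With the neighbour over 10 kb away the shares were 51.3% (50.1 to 52.6) and 49.6% (48.2 to 50.9), near an even split. The lean towards a close neighbour was thus found with and without FLAG peaks, and the difference of the shares was within their intervals.

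Members had another H3K4me2 peak within 1000 bp, 2000 bp, 5 kb or 10 kb slightly more often than the comparison set. Within 500 bp, and within 20 kb or more, the shares were close. Another H3K4me2 peak lay within 10 kb of 64.97% (64.3 to 65.7) of members and 63.2% (62.5 to 64.0) of peaks with a FLAG peak, against 61.0% over H3K4me2 peaks of every width. Within 5 kb the shares were 44.3% (43.6 to 45.1) and 41.2% (40.4 to 42.0). Within 2000 bp they were 27.6% (26.9 to 28.2) and 25.04% (24.3 to 25.8), and within 1000 bp 23.2% (22.6 to 23.8) and 21.7% (20.99 to 22.3). Within 500 bp they were 18.0% (17.5 to 18.6) and 18.1% (17.5 to 18.8), within 20 kb 82.0% (81.4 to 82.6) and 81.4% (80.8 to 82.0), and within 50 kb 94.7% (94.3 to 95.01) and 94.7% (94.3 to 95.1). When a FLAG peak within 1 kb also counted as overlap, the difference at 10 kb turned round to -1.17 percentage points. Averaged over the 4 width bins, the difference at 10 kb was 2.94 percentage points, within its counting error of ±3.22. The median distance to the nearest other H3K4me2 peak was 6073 bp (5928 to 6220) for members and 6644 bp (6489 to 6815) for the comparison set.

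The neighbour of a member carried a FLAG peak less often than the neighbour of a FLAG-bearing peak. Over all distances, the nearest other H3K4me2 peak had a FLAG peak for 39.1% (38.3 to 39.8) of members and 53.7% (52.9 to 54.5) of the comparison set, against 45.4% over H3K4me2 peaks of every width. Much of that gap came from neighbours within 500 bp, where the shares were 21.3% (19.8 to 22.7) and 74.2% (72.4 to 75.8). A single FLAG peak can overlap both of such close peaks, and the rule keeps any peak it touches out of the members. The part of this in the gap was not tested. At 501 to 1000 bp they were 35.1% (31.99 to 38.3) and 37.4% (33.2 to 41.8), and at 1001 to 2000 bp 42.6% (39.1 to 46.2) and 41.4% (36.9 to 45.9), with overlapping intervals.

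Beyond 2 kb a smaller difference was seen again. There the neighbour had a FLAG peak for 43.6% (42.7 to 44.4) of 12754 members and 50.1% (49.1 to 51.0) of 10772 comparison peaks. Neighbours 10 to 20 kb away gave 43.8% (41.97 to 45.5) and 51.8% (49.9 to 53.8). With neighbours of 1501 to 2000 bp only, to hold their width, the shares were 41.6% (39.7 to 43.6) and 53.0% (50.9 to 55.1). Those with neighbours of 1001 to 1500 bp were 30.6% (28.9 to 32.2) and 34.9% (33.0 to 36.8). List by list, the neighbour of a member had an Etv6 peak in 34.3% (33.5 to 35.1) of cases, against 41.9% (40.8 to 42.9) for the neighbour of a peak with Etv6. For Pax6 the shares were 15.1% (14.5 to 15.8) and 25.2% (23.9 to 26.6), and for EGFP_OK 17.2% (16.6 to 17.9) and 21.8% (20.5 to 23.1). Without chromosome 14 the difference beyond 2 kb was -6.15 percentage points, against -6.49 with it. The other chromosomes also differ in their FLAG shares, as given below. The part of such differences between chromosomes was not tested.

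**Figure D3:**
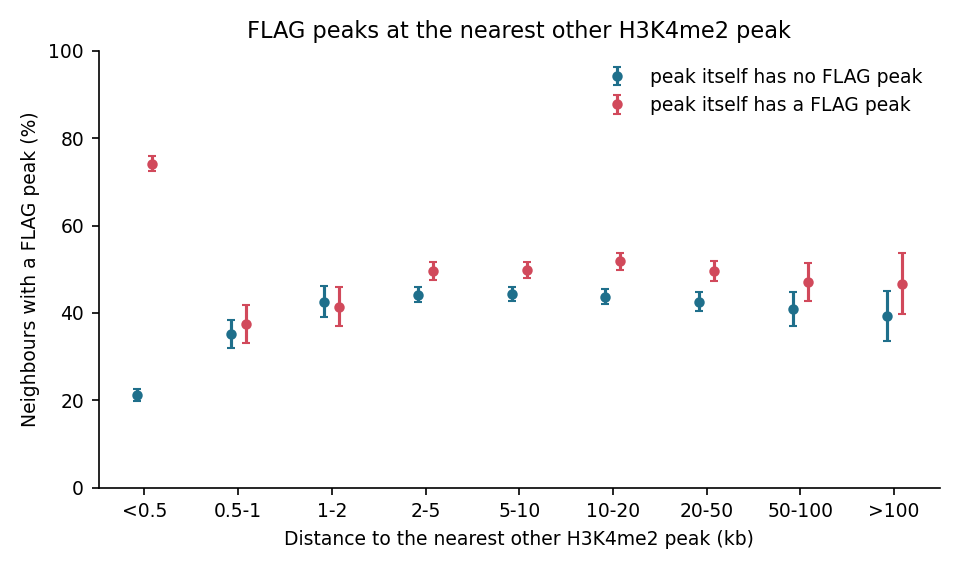
Share of nearest other H3K4me2 peaks that carry a FLAG peak (y axis, percent) by their distance (x axis, kb), for members (blue) and mid-width peaks with a FLAG peak (red). Bars are 95% exact binomial intervals. The sets are far apart within 0.5 kb, at 21.3% and 74.2%, overlap from 0.5 to 2 kb, and separate again, at 44.2% and 49.7%, from 2 to 5 kb.

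Chained over gaps of at most 10 kb, the H3K4me2 peaks of chromosomes 1 to 19 formed 30055 groups, of which 13623 held no FLAG-bearing peak. Of the members, 11263 (63.97%, 63.3 to 64.7) were in such groups. For the 6167 of these that stood alone the rule itself fixes this, since a lone member has no FLAG peak. Among members in groups of 2 to 4 peaks the share was 50.9% (49.9 to 51.9), and in groups of 5 to 9 peaks 12.9% (11.3 to 14.5). Larger groups seldom lacked FLAG peaks altogether, but a group of more peaks also has more chances to hold one. The part of this in the fall of these shares with group size was not tested, so they are a description only. Of groups of 2 to 4 peaks, 30.5% (29.6 to 31.4) had none, and of groups of 5 to 9 peaks 7.25% (5.53 to 9.32). All 28 groups of 10 or more peaks held one, and the exact interval of this share of 0 reaches up to 12.3%. The share of members among mid-width peaks changed little with group size, from 53.9% (52.9 to 54.8) of lone peaks to 55.3% (54.5 to 56.0) in groups of 2 to 4 and 58.4% (56.6 to 60.2) in groups of 5 to 9. The group with most members and no FLAG peak held 7 H3K4me2 peaks, all of them members, over 49400 bp on chromosome 6 (134352474 to 134401873). A group on chromosome 1 (154612189 to 154663594) held 7 peaks with 6 members. Another with 6 members among 7 peaks, on chromosome 19 (7041929 to 7071844), was much richer in signal, with 2511 tags against 1004 on chromosome 1 and 815 on chromosome 6. These groups were picked out after their values were seen.

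The distances from members to FLAG peaks are a description, because the rule keeps out any peak that touches a FLAG peak. The nearest FLAG peak of any list lay at a median of 9934 bp (9719 to 10176). It was within 1 kb for 8.30% (7.90 to 8.72), within 10 kb for 50.2% (49.5 to 50.95) and within 100 kb for 98.0% (97.8 to 98.2) of members. The share within 10 kb was 48.4% over H3K4me2 peaks of every width without a FLAG peak. No such share was computed for 1 kb or 100 kb. By list, the median distance was 17470 bp (16992 to 17852) to Etv6, 23648 bp (23119 to 24262) to EGFP_OK and 44433 bp (43200 to 45523) to Pax6. The order follows the lengths of the lists, with 30368, 27730 and 16233 peaks on these chromosomes. Etv6 was the nearest list for 50.1% (49.4 to 50.8) of members, EGFP_OK for 39.6% (38.9 to 40.3) and Pax6 for 10.3% (9.89 to 10.8).

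**Figure D4:**
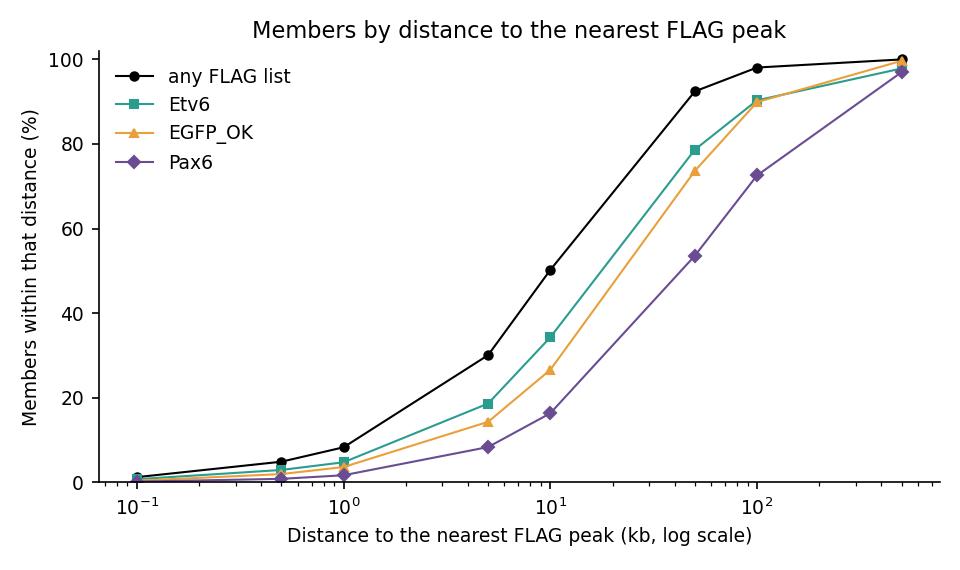
Cumulative share of members (y axis, percent) whose nearest FLAG peak lies within a given distance (x axis, kb, log scale), for any FLAG list and for each list. The curve for any list reaches 50.2% at 10 kb and 98.0% at 100 kb, and the Pax6 curve, from the shortest list, runs lowest.

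The Etv6 peaks that came close to a member without lying on H3K4me2 had a lower median score than those on the mark. The 285 such peaks within 1 kb of a member had a median score of 78.3 (71.2 to 83.6), against 98.6 (97.4 to 100.2) for the 10701 Etv6 peaks on mid-width H3K4me2 peaks. Other Etv6 peaks that lay on no H3K4me2 peak stood between, at 85.3 (84.3 to 86.4). The 285 peaks were also narrower than those on the mark, at a median of 1054 bp against 1135 bp. Their class admits only peaks that touch no H3K4me2 peak, and the part of this in the scores was not tested. For EGFP_OK the 335 peaks beside members had a median score of 91.5 (86.9 to 96.0), those on mid-width H3K4me2 peaks 89.2 (87.7 to 91.2) and the others off the mark 94.7 (93.3 to 95.9). The corresponding Pax6 scores were 70.3 (62.3 to 77.4), 74.2 (73.2 to 75.3) and 71.5 (70.9 to 72.5). In the EGFP_OK and Pax6 lists the score interval for peaks beside members thus overlapped that for peaks on the mark. By fold enrichment, EGFP_OK peaks beside members were higher, at 7.06 (6.69 to 7.38) against 6.53 (6.45 to 6.62) on mid-width H3K4me2 peaks. Etv6 peaks beside members were lower, at 5.86 (5.67 to 6.13) against 6.35 (6.3 to 6.4). For Pax6 the fold intervals overlapped, at 10.18 (9.63 to 10.83) and 10.56 (10.49 to 10.56).

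Chromosomes differed in the share of mid-width peaks that were members, and 14 and 13 were the extremes. On chromosome 14, 887 of 1285 mid-width peaks were members, which is 69.0% (66.4 to 71.5). On chromosome 13 the share was 47.1% (44.7 to 49.6), and the median over the 19 chromosomes was 54.1%. Chromosomes 4, 5 and 7 were also high, at 63.3% (61.0 to 65.5), 61.4% (59.2 to 63.6) and 60.02% (57.7 to 62.3). The high share of chromosome 14 was found at each width. It was 75.9%, 68.3%, 60.4% and 61.7% in the bins from narrow to wide, against 67.2%, 54.6%, 45.4% and 37.1% over all chromosomes.

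On chromosome 14 the shortfall was in the Etv6 and Pax6 lists more than in EGFP_OK. An Etv6 peak overlapped 19.8% (17.7 to 22.1) of its mid-width H3K4me2 peaks, the lowest of the 19, against a median of 36.8% over chromosomes. A Pax6 peak overlapped 9.11% (7.59 to 10.8), also the lowest, against a median of 15.5%, and an EGFP_OK peak 14.3% (12.4 to 16.4) against 16.5%. On chromosome 13 all 3 lists were above their medians, with 41.7% (39.3 to 44.1) for Etv6, 21.1% (19.2 to 23.2) for Pax6 and 21.7% (19.8 to 23.8) for EGFP_OK. The tag density of the members themselves did not stand out on chromosome 14, at a median of 68.9 tags per kb (66.9 to 71.1) within a range of 61.9 on chromosome 16 to 76.8 on chromosome 7. The Etv6 and Pax6 titles name NS and the H3K4me2 and EGFP_OK titles N31, so a difference between cells cannot be told apart from one between tagged proteins. Without chromosome 14, members made up 54.5% (53.9 to 55.03) of the mid-width peaks.

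**Figure D5:**
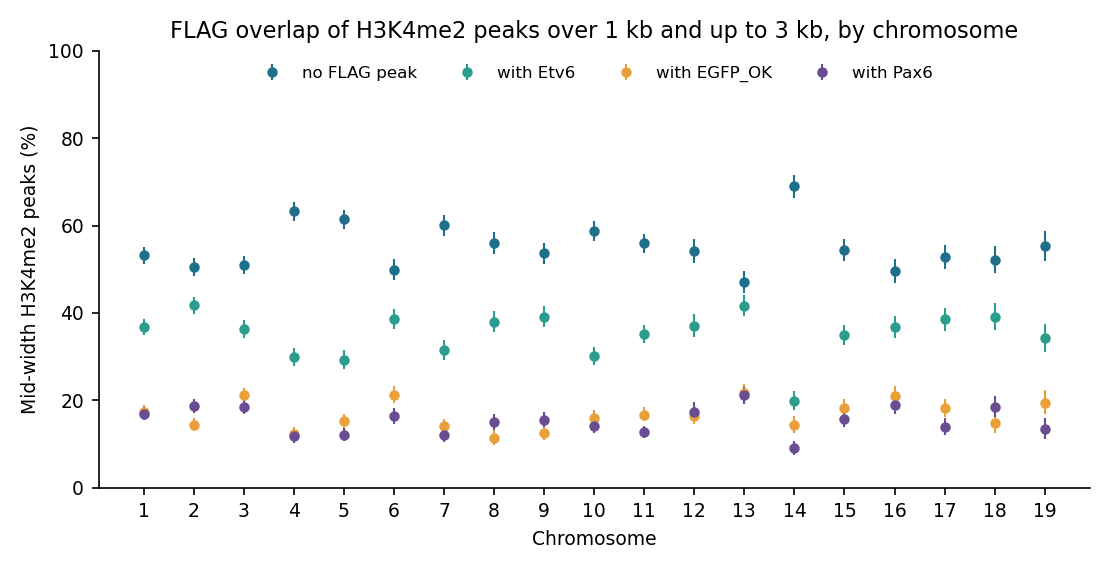
Share of mid-width H3K4me2 peaks (y axis, percent) without a FLAG peak and with an Etv6, EGFP_OK or Pax6 peak, by chromosome (x axis). Bars are 95% exact binomial intervals. Chromosome 14 has the highest share without a FLAG peak, 69.0%, and the lowest with Etv6, 19.8%.

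Among the 10 members with the highest score, 6 lay on chromosome 11, which held 1198 or 6.80% of all members. Its FLAG-bearing mid-width peaks had the highest median tag density of the 19 chromosomes, 89.6 tags per kb (84.6 to 93.5), and its members had 72.2 (70.2 to 75.5). The highest was at 94901297 to 94903942 on chromosome 11, 2646 bp wide, with 546 tags, a score of 1232.8 and a fold of 8.74. Its nearest FLAG peak, of Etv6, was 9111 bp away and its nearest H3K4me2 peak 28962 bp. The next, at 119088719 to 119090959, had 386 tags, a score of 1064.1 and a fold of 10.98, with an EGFP_OK peak 8347 bp away. The third, at 67778627 to 67781417, had 483 tags and stood 37902 bp from a FLAG peak. The others on this chromosome began at 70427641 (355 tags), 78278236 (390 tags) and 72079265 (381 tags). Outside it, the list held 1 member each on chromosome 14 (32136386 to 32138500, 377 tags), chromosome 1 (138290490 to 138292669, 356 tags), chromosome 15 (99704471 to 99707284, 489 tags) and chromosome 6 (125180606 to 125182911, 393 tags). The narrowest of the 10 was 2115 bp wide. The member on chromosome 15 was the exception in its distance to a FLAG peak, with an EGFP_OK peak only 248 bp away, whereas the other 9 were at least 5420 bp from one.

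Members with the highest fold were narrower and had fewer tags. The highest, on chromosome 5 (33546163 to 33547190), reached 22.2-fold with 87 tags in 1028 bp and lay 233348 bp from a FLAG peak. A member on chromosome 11 (82727982 to 82729086) reached 19.5-fold with 90 tags, and one on chromosome 7 (25413411 to 25414778) 19.2-fold with 105 tags. A pair on chromosome 18, beginning at 36118181 and 68633687, reached 19.4-fold and 19.1-fold with 145 tags each. Tag density and fold went apart at the other end too. The densest member, on chromosome 6 (47716885 to 47718914), held 667 tags, or 328.6 per kb, yet its fold was 3.30 and its score 70.2. Beside it, 1661 bp away, the member at 47720575 to 47723540 held 804 tags, the most of any member, or 271.1 per kb, at 5.46-fold. A member on chromosome 17 (15130120 to 15131462) likewise had 210.7 tags per kb at 3.13-fold, and one on chromosome 15 (81297103 to 81299197) 212.9 at 6.39-fold. The list of the 5 densest is completed by the top-scoring member of chromosome 11, at 206.3 tags per kb.

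Of the 5 members farthest from FLAG peaks, 4 held fewer tags than the median member, which held 115. The farthest, on chromosome 7 (23559056 to 23560412), had 67 tags at 7.61-fold and lay 1306104 bp from the nearest FLAG peak and 1305630 bp from the nearest other H3K4me2 peak. One on chromosome 2 (85859586 to 85860693) had 46 tags and lay 929768 bp from a FLAG peak, but 501 bp from another H3K4me2 peak. One on chromosome 12 (24289203 to 24290733) had 94 tags at 9.07-fold, 818698 bp away. A pair on chromosome 13, beginning at 68707020 (48 tags) and 68719372 (165 tags), lay over 600 kb from any FLAG peak, at 618350 and 605355 bp. The latter had a density of 97.7 tags per kb, above the median of all members, and another H3K4me2 peak stood 206 bp away.

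Some places held several members. On a fixed grid of 100-kb windows, 9271 windows held at least 1 member and 4 held 9, the most seen. The first 3 of these in order of chromosome name are given. The window on chromosome 14 from 56200001 to 56300000 held 9 members among 11 H3K4me2 peaks, with 2 EGFP_OK summits, 1 Etv6 summit and 0 of Pax6. Its members had 139 to 269 tags and 85.1 to 127.7 tags per kb, all above the median of members. In the window on chromosome 2 from 32500001 to 32600000 every one of the 9 mid-width peaks was a member, with 52.8 to 117.6 tags per kb. This window held 11 H3K4me2 peaks, with 1 EGFP_OK summit, 3 Etv6 summits and 0 of Pax6. The window on chromosome 6 from 52100001 to 52200000 held 9 members among 13 H3K4me2 peaks, at 44.9 to 106.7 tags per kb, with 3 EGFP_OK, 1 Pax6 and 3 Etv6 summits.

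The peaks nearest to the limits of the rule are given next, inside and outside. The first members of 1001 bp in order of chromosome name, on chromosome 1 (66367915 to 66368915 and 130728604 to 130729604) and chromosome 10 (25433090 to 25434090), had 42, 72 and 55 tags. Peaks of 1000 bp without a FLAG peak, just outside, had 49 (chromosome 1, 114352637 to 114353636), 56 (chromosome 11, 18149185 to 18150184) and 42 tags (chromosome 11, 38256268 to 38257267). At the upper limit, members on chromosome 2 of 3000 bp (from 36076833 and from 155674174) had 168 and 193 tags, and one of 2999 bp on chromosome 14 (from 21609918) had 316. The next wider peaks without a FLAG peak had 456 (chromosome 19, from 8911098), 410 (chromosome 1, from 138239310) and 303 tags (chromosome 10, from 107599873). At the FLAG limit, 24 members had a FLAG peak within 10 bp and 21 peaks of the comparison set shared at most 10 bp with one, against a median of 1054 bp shared. The closest members, 1 bp from a FLAG peak, lay on chromosome 17 (86543054 to 86544606, 183 tags), chromosome 2 (152053017 to 152054891, 206 tags) and chromosome 3 (50191503 to 50193241, 120 tags). The peaks with the shortest overlaps, all with Etv6, lay on chromosome 18 (from 12392562, 242 tags), chromosome 6 (from 122482555, 142 tags) and chromosome 1 (from 137789099, 80 tags).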

How the data were processed

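Each library was deposited as a list of peaks. Per the file headers, the lists were made by MACS 1.4.2 on each library alone, without a control, at a p-value cutoff of 1.00e-05 and with at most 1 tag kept per position. The submitters' processing notes also name BWA 0.6.2, CASAVA 1.8.1 and build mm9. With no control, local differences in background stay in the lists. Per the file headers, each peak has a count of tags, deposited without normalization, a score (10 times the −log10 p-value) and a fold enrichment (a ratio to the library's own local background). The authors' scores and folds were used to describe, rank or filter peaks within each list, and a score cutoff of 100 was applied to every FLAG list in 1 alternative.

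Overlap means at least 1 bp, and distances run from edge to edge. Tags per kb are tags divided by width. Shares have 95% exact (Clopper-Pearson) binomial intervals and medians 95% exact order-statistic intervals, and both cover counting error only. For a difference, the counting errors of the 2 sets were added, and these sums were averaged where width bins were used. Such a summed error is wider than the 95% counting error of the difference itself. Computations used Python 3.11.15 with pandas 2.3.3, scipy 1.17.1 and numpy 2.4.6, and the functions were tested on simulated lists with known answers. The headers give redundant rates of 39% (EGFP_OK), 81% (Pax6), 22% (Etv6) and 16% (H3K4me2). Regions were named by rule: the 10 members with the highest score, 5 each by fold, tags per kb and distance from FLAG peaks, 3 on each side of each limit, and 3 windows of 100 kb. Members and lists were chosen with earlier results of these data known. The planned gene, marker and sequence steps needed a genome of build mm9 and were not run. The comparison of neighbours, FLAG classes, chained groups, summit sides, rank parts and chromosomes was added after the values were seen.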

Additional observations from a re-analysis of the deposited data

Results flagged for a closer look

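The comparisons were limited to chromosomes 1 to 19, and peaks that otherwise meet the rule were found outside them. On chromosome X there were 385 such peaks among 545 H3K4me2 peaks of these widths, which is 70.6% (66.6 to 74.4), with a median of 58.8 tags per kb and 6.12-fold. On chromosome Y and unplaced sequences there were 39 among 58, or 67.2% (53.7 to 78.99), with a median of 70.8 tags per kb. They are given here because the comparisons left them out. Each count is above 3, the limit that a count of 0 allows. That limit is only a bound and no test, because no number of peaks was expected there.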

How the results depend on the processing

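No paired analysis was possible because each group held 1 library, and no library could be left out of a group. The share of mid-width peaks without a FLAG peak, 55.1%, depended on what counted as a FLAG peak. It was 59.5% when a FLAG summit had to lie inside, 50.5% when a FLAG peak within 1 kb counted, 77.4% with FLAG peaks of a score of at least 100, 53.9% with H3K4me2 peaks of a score of at least 100 and 51.1% averaged over width bins. It was 62.1% without the EGFP_OK list, 57.1% without Pax6 and 72.2% without Etv6. With alternatives added after seeing the data it was 54.5% without chromosome 14 and 83.3% with the EGFP_OK list alone. The difference in tags per kb (members minus comparison set, -5.67) was -3.00 by summit and -7.44 with the 1-kb margin. With stronger FLAG peaks it was -1.04, with a summed error of ±1.42. It was reversed by matching widths, to 2.66 over 500-bp bins, with a summed error of ±2.41, and 2.76 over 100-bp bins. The score difference (-20.5) was -12.8 with the margin and -13.7 with stronger FLAG peaks. It changed sign when widths were matched, to 6.25 over 500-bp bins, with a summed error of ±15.9, and 10.1 over 100-bp bins. The fold difference (0.33) stayed positive in all 6 alternatives, at 0.20 by summit, 0.53 with the margin, 0.56 with stronger H3K4me2 peaks, 0.185 over 500-bp bins and 0.25 over 100-bp bins. The difference in shares with another H3K4me2 peak within 10 kb (1.73 percentage points) was 5.30 by summit and 4.26 with stronger FLAG peaks. It was 2.94 averaged over width bins (summed error ±3.22), 0.61 within 20 kb (±1.21) and -1.17 with the margin (±1.49). Summed errors are too wide to settle whether these values differ from 0 beyond counting error. The difference in FLAG peaks at neighbours over 2 kb away (-6.49 percentage points, summed error ±1.81) was -14.6 at any distance. In the other 6 alternatives it was within that summed error of the main value. Of the 43 alternative values, 15 moved by no more than the error of the main value, 23 by more and 5 changed sign. For differences that error was the summed error. Apart from the width bins, which change only the mix of widths, the cause was not tested. The Pax6 library had the fewest kept tags, and calls at equal depth were not made.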
